A study of Rattus norvegicus with 4 samples.

Results

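The miR-34 family was followed in RNA of extracellular vesicles, the membrane particles that cells release, from rat marrow-derived macrophages. Its members were taken by name as every non-control row of the arrays for rno-miR-34a-5p, rno-miR-34b-5p, rno-miR-34c-5p and their 3p arms. This gave 6 of the 758 miRNA arms on the array, read by 14 of 1806 probes and 96 of 12128 spots per array. Each of the 4 arrays was a single-colour (Cy3) Agilent rat miRNA array. The M1_OA group held 2 arrays, of vesicles from M1 macrophages of male Sprague-Dawley rats with osteoarthritis. Those rats had the medial meniscus destabilised and the anterior cruciate ligament cut in the right knee at 8 weeks of age. Their macrophages received 100 ng/mL LPS and 20 ng/mL IFN-γ for 48 hours and then 5 mM ATP for 60 minutes. The M0_sham group held 2 arrays, of vesicles from M0 macrophages of rats sham-operated at 8 weeks of age, with no LPS, IFN-γ or ATP. The labels list 0.2 µg of RNA for each array. In both groups marrow was taken 8 weeks after surgery, and sorted CD45+ CD11b+ cells were cultured until day 7 in medium with 20 ng/mL M-CSF. Surgery, polarisation and ATP therefore change together in the only contrast, and these macrophages, grown from marrow, stood in for those of the synovium. Whether replicates were separate animals or cultures is not stated in the labels, and a p-value here covers no more than the spread between these arrays.

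Transcription of the miR-34 genes is raised by p53, a transcription factor activated by DNA damage and other stress, as is known chiefly from human and mouse cells. The mature miRNAs lower the levels of transcripts for cell cycle and survival proteins. In mice, miR-34a is made in many tissues, whereas miR-34b and miR-34c, which come from a shared transcript, are best known from multiciliated epithelium and testis, as are the related miR-449 miRNAs. The arrays hold miRNA probes and did not measure p53 or its activity, so that part of the family's usual description could not be checked here.

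The mature sequences are shown because the 5p arms share the bases with which a miRNA pairs to its targets and differ mainly outside them. They are RefSeq entries on the GRCr8 build, written 5′ to 3′ with the seed (bases 2 to 8) in capitals.
rno-miR-34a-5p: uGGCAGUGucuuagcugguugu
rno-miR-34b-5p: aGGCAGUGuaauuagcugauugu
rno-miR-34c-5p: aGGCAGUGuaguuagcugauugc
rno-miR-449a-5p: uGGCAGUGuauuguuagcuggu
rno-miR-449c-5p: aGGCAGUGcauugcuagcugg
rno-miR-34a-3p: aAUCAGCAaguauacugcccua
rno-miR-34b-3p: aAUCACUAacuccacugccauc
rno-miR-34c-3p: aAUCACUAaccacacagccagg

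The seed GGCAGUG was found in 5 of the 685 array miRNAs that had a sequence in the table: the 3 miR-34 5p arms, miR-449a-5p and miR-449c-5p. Aligned over 23 columns, miR-34b-5p and miR-34c-5p matched at 21 positions (91.3% identity). miR-34a-5p matched miR-34b-5p at 19 of 23 positions (82.6%) and miR-34c-5p at 18 of 23 (78.3%). Among the 3p arms, miR-34b and miR-34c share the seed AUCACUA, while miR-34a-3p has AUCAGCA.

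The precursors lie at separate loci. Mir34a was on the plus strand at chr5:165815952-165816053 (GRCr8), where the annotation places the long non-coding RNA gene LOC103692514. Its nearest protein-coding neighbours were Gpr157, 17597 bp away, and H6pd, 62793 bp away. Mir34b (chr8:60306609-60306692) and Mir34c (chr8:60306091-60306167) were both on the minus strand, 441 bp apart, and both within the span of the gene Hoatz. Btg4 lay 397 bp from Mir34b. The exons of these host genes were not used here. The 3 hairpins follow, with the 5p arm in capitals, to show that each arm is a stretch of a longer precursor.
Mir34a: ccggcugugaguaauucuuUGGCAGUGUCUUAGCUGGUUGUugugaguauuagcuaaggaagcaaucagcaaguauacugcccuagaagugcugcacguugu
Mir34b: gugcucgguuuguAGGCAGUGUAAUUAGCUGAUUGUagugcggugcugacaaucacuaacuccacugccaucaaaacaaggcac
Mir34c: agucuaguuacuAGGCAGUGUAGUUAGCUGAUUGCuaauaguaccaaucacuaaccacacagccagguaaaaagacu

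Only miR-34a-5p was measured above background in any library, and only in M1_OA vesicles. On the arrays a miRNA's signal is the sum over its probes of the processed signal, the spot intensity after background subtraction. It was called well above background on an array where more than 0.5 of the kept spots of at least 1 probe carried the scanner software's flag for that. Summed signals of miR-34a-5p were 122.0 and 92.2 in the M1_OA replicates, against -1.54 and -5.81 in the M0_sham replicates. The groups did not overlap, but such a gap was not particular to miR-34a-5p. Most of the 41 miRNAs tested below were brighter on both M1_OA arrays than on either M0_sham array. Signals of miR-1224, for example, were 18070 and 17360 in M1_OA, against 2698 and 5330 in M0_sham, while those of miR-423-5p overlapped. Over the 41 miRNAs the median unscaled log2 difference was 1.96, and 32 were called higher by limma without scaling (78.0%). The mean of miR-34a-5p was 107.1 ± 21.1 in M1_OA and -3.67 ± 3.02 in M0_sham (SD, n = 2 each). As these are bulk vesicle preparations, more vesicles that carry the miRNA and more copies per vesicle cannot be told apart.

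Both probes of miR-34a-5p pair with nearly all of the miRNA, from its 3′ end into the seed, and the longer one reaches 1 base further. They are shown because they gave different signals; they are written 5′ to 3′ with the last base in capitals.
miR-34a-5p probe of 20 nt: acaaccagctaagacactgC
miR-34a-5p probe of 19 nt: acaaccagctaagacactG

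The 20 nt probe pairs with bases 3 to 22 of the miRNA, and the 19 nt probe with bases 4 to 22. On M1_OA replicate 1 the 6 kept spots of the 20 nt probe had a lowest signal of 106.2, a median of 111.5 and a highest of 113.5. On M1_OA replicate 2 its 7 kept spots had a lowest signal of 72.3, a median of 81.4 and a highest of 89.5. All 8 of its spots were flagged well above background on each M1_OA array, outlier-marked ones included. On M0_sham replicate 1 its 8 spots lay between -4.25 and 2.31, and on M0_sham replicate 2 between -5.65 and -1.19, with 0 of 16 well above background. Every M1_OA spot of this probe was thus brighter than every M0_sham spot.

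The 19 nt probe also gave higher signals in M1_OA than in M0_sham, but near the background limit. Its 7 kept spots on M1_OA replicate 1 lay between 2.68 and 17.0 and its 8 spots on M1_OA replicate 2 between 7.30 and 13.8. In M0_sham its kept spots lay between -1.63 and 0.171 on replicate 1 and between -5.92 and -0.817 on replicate 2. The lowest M1_OA spot, 2.68, was above the highest M0_sham spot. Yet only 1 of 7 kept spots on M1_OA replicate 1, and 0 of 8 on M1_OA replicate 2, carried the flag. The 20 nt probe accordingly held 90.8% and 88.3% of the summed miR-34a-5p signal on the M1_OA replicates, so the level given for the miRNA is in effect that of 1 probe. The same split was common on the array: of 40 miRNAs detected on both M1_OA arrays and read by probes of at least 2 lengths, 18 passed on both arrays with the longest probe and not the next shorter, 19 with both, and 3 with the shorter alone.

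**Figure D1:**
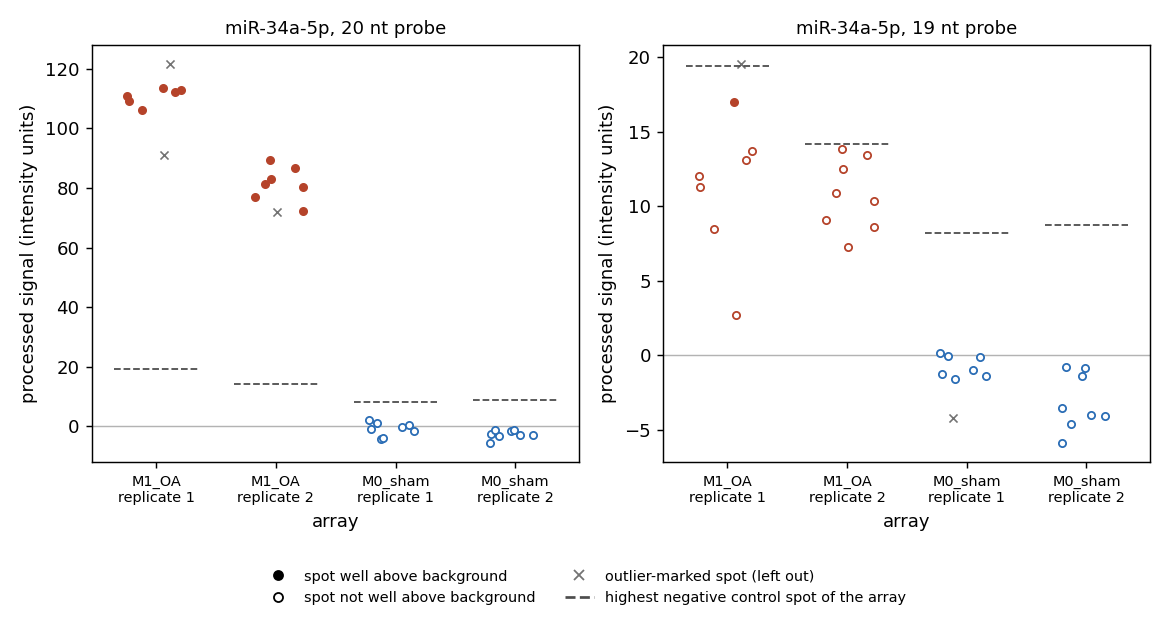
Processed signal (intensity units) of each spot of the 20 nt (left) and 19 nt (right) miR-34a-5p probes on the 4 arrays, with separate vertical scales. Filled points are spots well above background, open points are not, crosses are outlier-marked spots left out of means, and dashes mark each array's highest negative control spot; 20 nt spots of M1_OA lie far above the dashes, and most 19 nt spots of M1_OA lie below them.

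Negative control spots gave a further measure of background. The highest kept negative control spot had a signal of 19.4 and 14.2 on the M1_OA replicates, against 8.23 and 8.73 on the M0_sham replicates. All kept 20 nt spots of miR-34a-5p exceeded it on the M1_OA arrays (6 of 6 and 7 of 7), against 0 of 8 and 0 of 8 on the M0_sham arrays. No kept spot of the 19 nt probe did so on any array, and neither did any kept spot of the other 5 arms. The mean of the negative control spots was itself higher in M1_OA (9.98 and 6.02) than in M0_sham (3.50 and 3.99). Means of the 19 nt probe were 11.2 and 10.8 in M1_OA, against -0.752 and -3.16 in M0_sham. The part of the control shift in the separation at that probe was not tested.

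The other 5p arms, miR-34b-5p and miR-34c-5p, gave no signal above background in either group. Summed signals of miR-34b-5p were 1.57 and -0.411 in the M1_OA replicates, against -0.932 and -6.29 in the M0_sham replicates. For miR-34c-5p they were -6.47 and -0.475 in M1_OA, against -4.84 and -8.78 in M0_sham. The values of both groups lie around or under 0, where the arrays do not resolve a level, so no fold is given. The limit differs by array: the lowest summed signal of a miRNA called well above background was 16.9 and 14.6 on the M1_OA replicates, against 7.78 and 26.7 on the M0_sham replicates. These values are guides and not sharp limits, as the call was made per probe. On M0_sham replicate 1, for example, miR-483-5p had a summed signal of 12.3 and was not called. Amounts near or below such values could go undetected.

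The 3p arms, the strands opposite the guide in each hairpin, likewise passed the background call on none of the arrays. miR-34a-3p had summed signals of -9.50 and -8.66 in M1_OA, against -4.50 and -8.58 in M0_sham. miR-34b-3p had -5.72 and -9.59 in M1_OA, against -1.80 and -3.52 in M0_sham. miR-34c-3p, read by 4 probes of only 10 to 13 nt, had -24.8 and -33.1 in M1_OA, against -17.0 and -20.8 in M0_sham. Since a sum over 4 probes adds up 4 negative backgrounds, these are not levels of the miRNA.

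Over the 5 arms other than miR-34a-5p, 0 of 320 spots were well above background, outlier-marked spots included. The brightest kept spot was 3.04 and 6.01 on the M1_OA replicates, against 2.82 and 0.789 on the M0_sham replicates. Means of their 12 probes ran from -8.74 to 0.966 on the M1_OA arrays, against -6.11 to 0.437 on the M0_sham arrays. The family's signal on these arrays was therefore that of 1 arm of 1 gene.

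**Figure D2:**
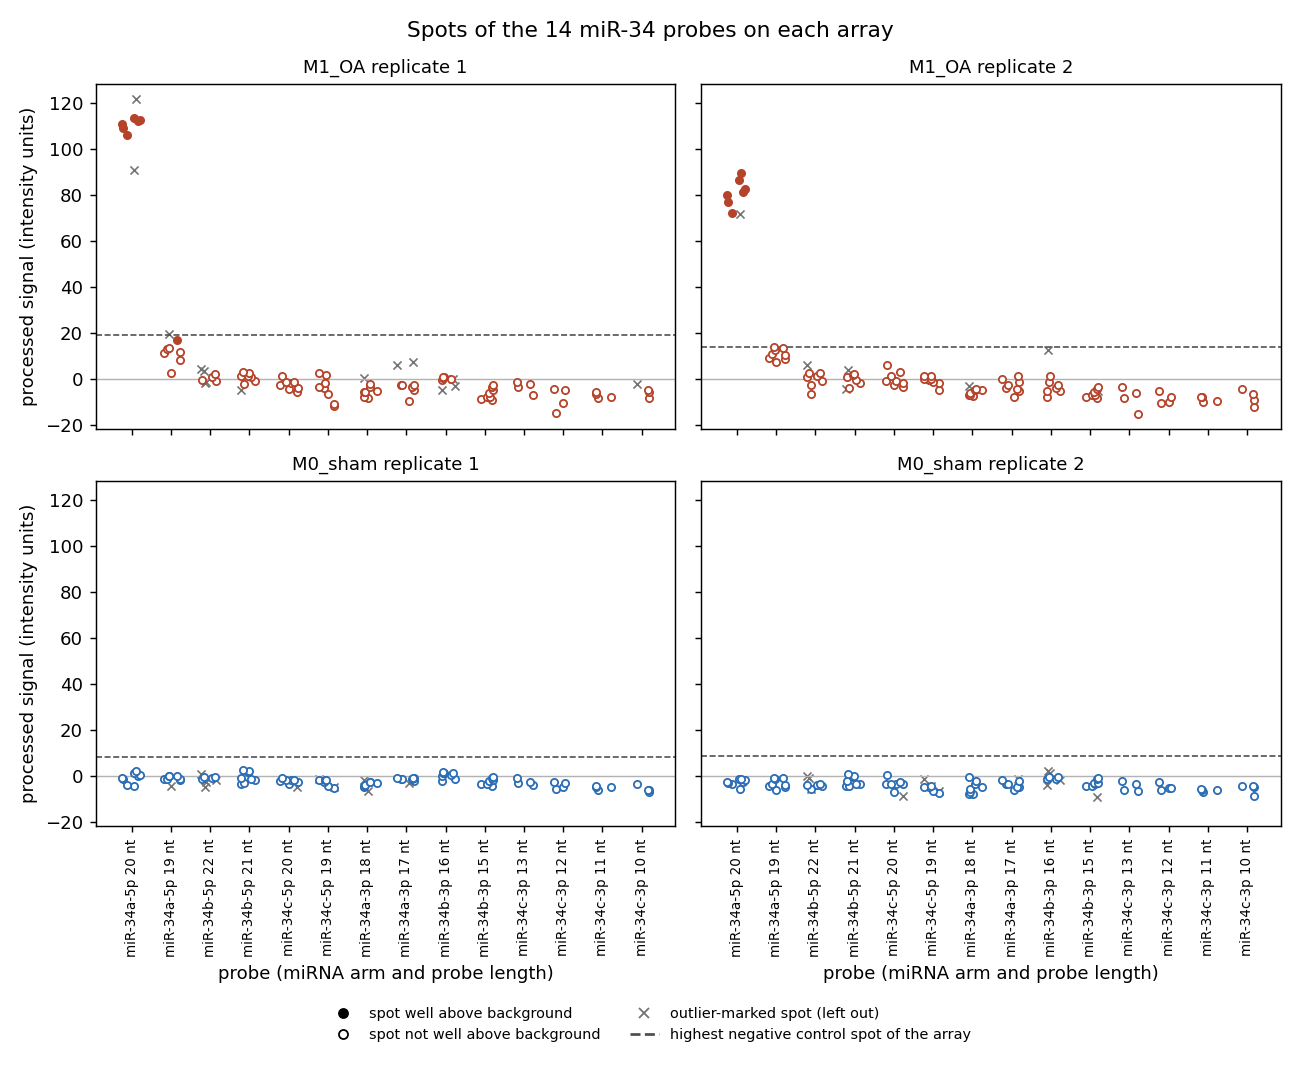
Processed signal (intensity units) of each spot of the 14 miR-34 probes, 1 panel per array with M1_OA above M0_sham; symbols as in the plot of the miR-34a-5p probes, and the dashed line is the array's highest negative control spot. Only the 20 nt miR-34a-5p probe on the M1_OA arrays stands clear of the line, with kept spots from 72.3 to 113.5.

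Pairing between the members and each other's probes was compared by sequence alone. The longest unbroken run of bases of miR-34a-5p complementary to a miR-34b-5p probe was 7 or 8, and to a miR-34c-5p probe 7. To its own probes it was 19 and 20. Between miR-34b-5p and the miR-34c-5p probes the run was 11. Hybridisation between these pairs was not tested.

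The comparison of M1_OA with M0_sham was made on log2 values after scaling each array to the 75th percentile of 11 miRNAs, those detected above background on every array. A floor of 7.90, the dimmest scaled signal of any detected miRNA, replaced all lower values. miR-34a-5p then averaged 5.91 ± 0.11 in M1_OA (SD, n = 2), while both M0_sham arrays were at the floor of 2.98. The log2 difference was 2.93 ± 0.13 (SE), with an adjusted p of 0.00104 in limma with Benjamini-Hochberg adjustment over 41 miRNAs. As the floor replaced both M0_sham values, their spread of 0 is built in, and the SE reflects M1_OA and the other miRNAs. An exact permutation test of 2 arrays against 2 cannot give a two-sided p under 0.333.

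That call has to be read against how miRNAs entered the test. The 41 miRNAs tested were those that passed the background call on both arrays of 1 group or of each group, and miR-34a-5p was among 24 that passed on both M1_OA arrays and on no M0_sham array. Passing only through the group where it was bright favoured a higher call for such a miRNA. Of the 6 miR-34 arms 1 was tested and was called higher, where 22 of all 41 tested were called higher (53.7%) and 4 lower (9.76%). Among the 24, 19 were called higher (79.2%). Without scaling, 32 of 41 were called higher (78.0%), and 24 of the 24 (100%), while 0 of 41 were called lower by limma (0%; also 0 at an unadjusted p under 0.05). With the normexp background correction 4 of 41 were called higher (9.76%) and 25 lower (61.0%). A call for miR-34a-5p was thus common among miRNAs admitted in the same way.

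The size of the change can only be bounded. With each M0_sham array's lowest detected signal in place of its dimmer miR-34a-5p signal, miR-34a-5p was at least 2.36-fold higher in M1_OA on scaled values and at least 7.35-fold higher on unscaled values. Of the 24 miRNAs, 14 had such a bound over 1 on scaled values and 24 on unscaled values. When every kept spot of a probe had to be well above background, the scaled bound was 0.980, which gives no fold. The bound rests largely on M0_sham replicate 2, whose lowest detected signal was 26.7. Without that array it was at least 4.52-fold, and without M0_sham replicate 1 at least 1.71-fold.

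The scaling itself moves with the groups. Scaling divided the M1_OA replicates by 2.14 and 1.46, against 0.490 and 0.656 for the M0_sham replicates. The number of miRNAs well above background was 42 and 45 on the M1_OA arrays, against 23 and 13 on the M0_sham arrays. The controls did not move one way. The labelling spike-ins, dmr_285 and dmr_31a, averaged 458.9 and 407.1 in M1_OA, against 602.4 and 720.7 in M0_sham. Another spike-in, dmr_3, had summed signals of 4209 and 4389 in M1_OA, against 3474 and 3325 in M0_sham, and dmr_6 had 303.1 and 311.4 in M1_OA, against 434.7 and 382.0 in M0_sham. The control hur_2, which the files do not mark as a spike-in, had 114700 and 133400 in M1_OA, against 7792 and 5308 in M0_sham. The part of these differences in the miR-34a-5p result was not tested beyond the scaling to the labelling spike-ins. Each of the 2 scan sessions held 1 group, so that the effect of the session cannot be told apart from that of the group. The median log2 difference of all 41 tested miRNAs was 0.62 with scaling, 1.96 without it and 2.56 with the labelling spike-ins as the basis. The fitted difference of miR-34a-5p was 2.93 with scaling, 3.77 without it and 4.25 with the spike-ins. In each case both M0_sham values were at the floor, so these differences depend on where it lay.

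The call was lost in 3 alternatives. With each array's own lowest detected signal as its floor, the log2 difference was 1.24 ± 0.64 (SE; limma adjusted p = 0.177). With all 758 miRNAs in the fit it was 2.93 with a limma adjusted p of 0.0888, and with the normexp background correction it was -0.18 ± 0.25 (limma adjusted p = 0.499).

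**Figure D3:**
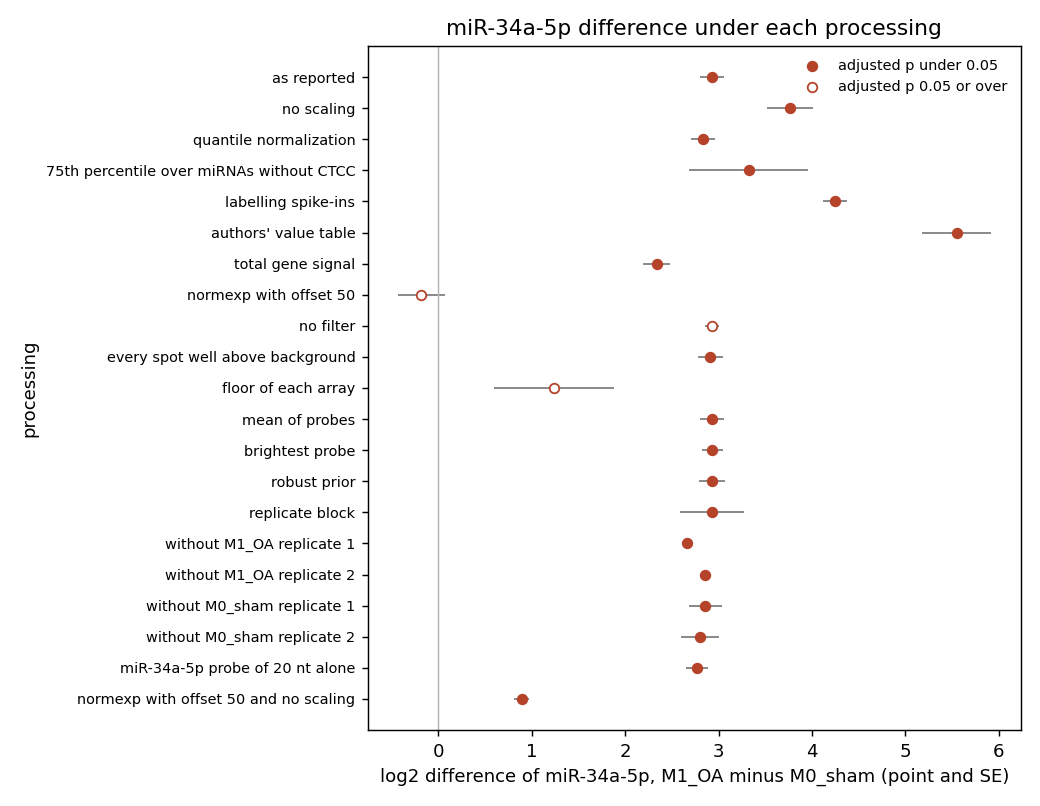
Log2 difference of miR-34a-5p (M1_OA minus M0_sham; points, with SE as bars) as reported and under each alternative processing. Filled points had a limma adjusted p under 0.05; the open ones are the normexp correction (-0.18), the floor of each array (1.24) and the fit without a filter (2.93).

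The authors' deposited table of log2 values gave the same split within the family. In the authors' deposited table miR-34a-5p had 3.41 and 3.24 in the M1_OA replicates, against -1.84 and -2.62 in the M0_sham replicates. All other miR-34 arms, and all 4 miR-449 arms, were listed at the floor of -3.32 on all 4 arrays in the authors' deposited table. How that table was scaled between arrays is not given in the sources used here. Per the scanner software's own total signal per miRNA, miR-34a-5p was at 64.8 and 48.9 in M1_OA, against 0.1 and 0.1, the lowest value listed on those arrays, in M0_sham. The M0_sham values above the floor in the authors' deposited table are therefore not read as measured levels.

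The seed relatives miR-449a and miR-449c, on chromosome 2, passed the background call on none of the arrays. Kept spots of their 10 probes ran from -11.2 to 5.75 on the M1_OA arrays, against -8.23 to 1.91 on the M0_sham arrays. Of the 5 array miRNAs with the seed GGCAGUG, miR-34a-5p was thus the only one measured in these vesicles.

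Other miRNAs reported to respond to p53, mostly in human cells, were taken from a list of 18. Of these, 14 were well above background on no array, among them miR-192-5p, miR-194-5p and miR-215, which are induced by p53 at the transcript level. The remaining 4, miR-23a-3p, miR-22-3p, miR-16-5p and miR-29a-3p, were all measured on both M1_OA arrays and neither M0_sham array, and all 4 were called higher, where 19 of the 24 miRNAs admitted in the same way were (79.2%). On scaled values only miR-23a-3p and miR-22-3p had a lower bound of fold over 1.

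miR-23a-3p, a product of the miR-23a, miR-27a and miR-24 cluster, had signals of 427.0 and 307.5 in M1_OA, against 4.77 and 4.42 in M0_sham (at least 8.08-fold higher on scaled values, limma adjusted p = 0.00102). miR-22-3p had 88.0 and 59.1 in M1_OA, against -4.05 and -8.86 in M0_sham (at least 1.61-fold higher, limma adjusted p = 0.00104). miR-16-5p, whose processing p53 is reported to promote in human cells, had 45.7 and 32.7 in M1_OA, against -2.82 and -4.96 in M0_sham. miR-29a-3p, reported to raise p53 levels in human cells, had 25.7 and 16.9 in M1_OA, against 0.829 and -4.10 in M0_sham. For each of these miRNAs the groups did not overlap, as for most of the 41 tested miRNAs, so this was not particular to the list. Without scaling 32 of all 41 were called higher by limma (78.0%), and their median log2 difference was 1.96. The scaled bounds of miR-16-5p and miR-29a-3p were 0.862 and 0.464, so no fold is given for them. Their calls had a limma adjusted p of 0.00273 and 0.0252. All 4 calls rest on M0_sham values set to the floor. For miR-23a-3p this held on M0_sham replicate 2 (2.98), with 3.28 on replicate 1, and for the others on both M0_sham arrays.

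**Figure D4:**
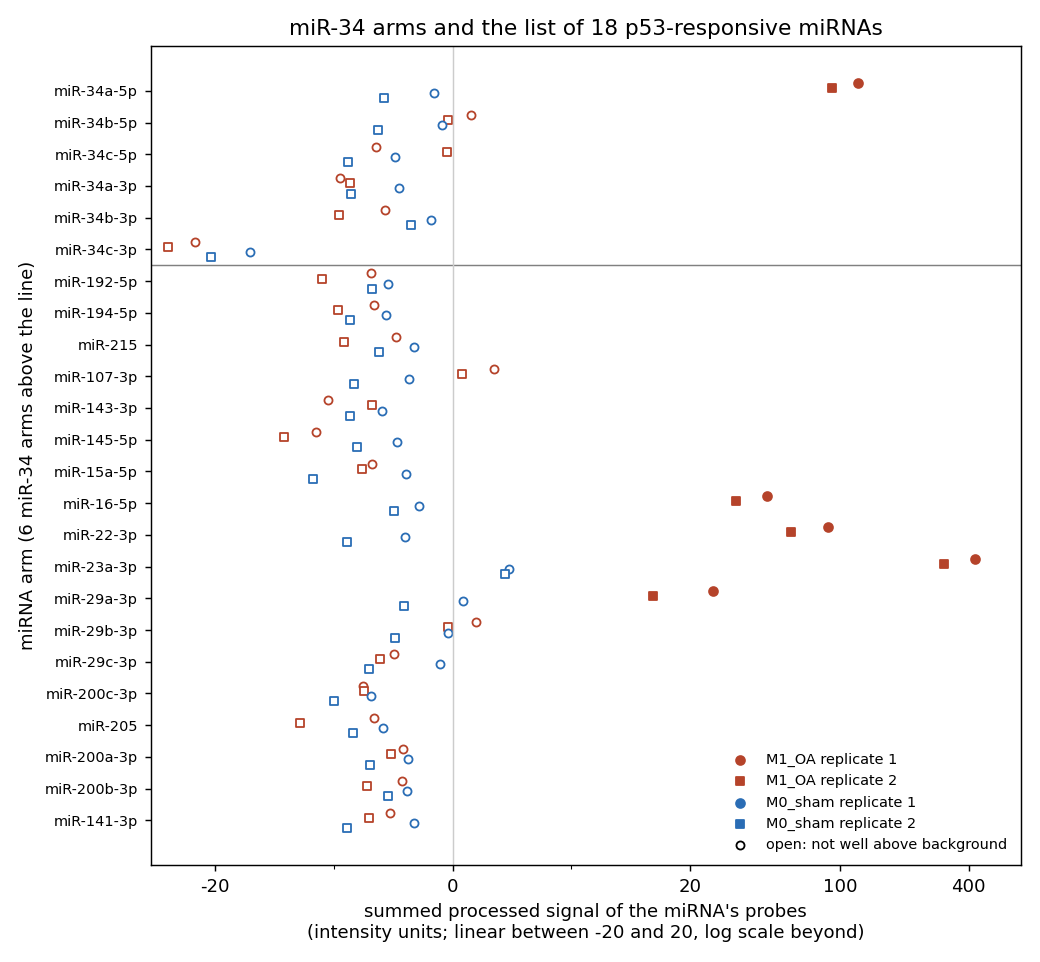
Summed processed signal (intensity units; linear between -20 and 20, log scale beyond) of the 6 miR-34 arms, above the line, and of 18 p53-responsive miRNAs on each array. Filled symbols are well above background: miR-34a-5p, miR-16-5p, miR-22-3p, miR-23a-3p and miR-29a-3p in M1_OA alone, with every M0_sham symbol open.

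Markers of cell types that could supply miR-34 were read beside it. Of 6 miRNAs listed as myeloid markers, 4 were tested. Of these, 3 were called higher in M1_OA (miR-155-5p, miR-21-5p and miR-146a-5p), while miR-223-3p did not pass (log2 difference -0.25, limma adjusted p = 0.576). Without scaling miR-223-3p was called higher in M1_OA (log2 difference 1.38, limma adjusted p = 0.00932). In that fit 32 of all 41 were called higher (78.0%), and the median log2 difference, 1.96, was above that of miR-223-3p. The 3 called markers were admitted through the M1_OA arrays alone, as were 24 tested miRNAs of which 19 were called higher (79.2%), against 22 of all 41 (53.7%). miR-142-3p and miR-142-5p, which blood cells make in quantity, did not pass on any array, and of the 6 myeloid markers M0_sham vesicles held only miR-223-3p above background, on replicate 1. The summed signal of the 6 was 701.0 and 518.6 in M1_OA, against 14.2 and -6.80 in M0_sham. In M1_OA it came mostly from miR-21-5p (387.3 and 320.3) and miR-146a-5p (190.7 and 107), while miR-223-3p gave 59.8 and 43.7. Whether the sum follows the source of the vesicles or the treatment was not tested. The markers of multiciliated epithelium and testis, miR-449a-5p, miR-449c-5p, miR-34b-5p and miR-34c-5p, were well above background on no array (0 of 4), with summed signals of -19.6 and -20.2 in M1_OA, against -22.7 and -39.1 in M0_sham. No marker on the lists for red cells, liver, endothelium, neurons, epithelium, stroma and bone, or lymphocytes was well above background on any array. Of 3 muscle markers, miR-206-3p was so on M1_OA replicate 2 alone. Summed signals of all these lists lay between -27.7 and 20.0 on the M1_OA arrays, against -39.1 and -2.09 on the M0_sham arrays.

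The tested miRNAs with the pattern most like that of miR-34a-5p were found by the distance between log2 values centred on each miRNA's own mean over the 4 arrays. The nearest 5 of 40 were miR-146a-5p (distance 0.527), miR-22-3p (0.568), miR-24-3p (0.600), miR-1896 (0.602) and miR-155-5p (0.689), against a median distance of 2.33. Centred values of miR-34a-5p were 1.39 and 1.54 in M1_OA, against -1.46 and -1.46 in M0_sham. Those of miR-146a-5p, which limits Toll-like receptor signalling, were 1.82 and 1.54 in M1_OA, against -1.68 and -1.68 in M0_sham. Those of miR-155-5p, which LPS induces in macrophages, were 0.98 and 1.27 in M1_OA, against -1.12 and -1.12 in M0_sham. Of the 5, all but miR-1896 sat at the floor on both M0_sham arrays, as miR-34a-5p did, which fixes much of the likeness. On unscaled values miR-483-5p came first, at a distance of 0.475, and miR-188-5p had rank 3 (0.527). There miR-155-5p (rank 6) and miR-1896 (rank 7) were no longer among the nearest 5. With 4 points that share their arrays and scaling, the ordering is a description of these libraries.

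**Figure D5:**
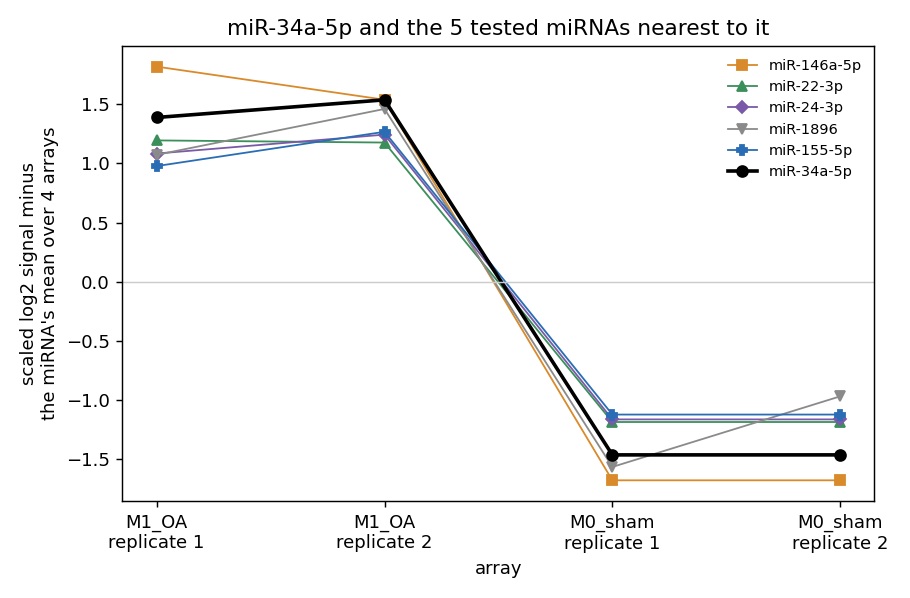
Scaled log2 signal minus the miRNA's own mean over the 4 arrays, for miR-34a-5p (black) and the 5 nearest tested miRNAs, by array with M1_OA on the left. All 6 lie above 0 on both M1_OA arrays and under 0 on both M0_sham arrays, and all but miR-1896 are flat in M0_sham, where they sit at the floor.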

How the data were processed

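RNA of vesicles was measured on 2 M1_OA and 2 M0_sham arrays. The scanner files deposited by the authors were written by Agilent Feature Extraction 10.7.1.1, per the submitters' processing notes, and give the intensity of each spot. In the processed intensity, per the file headers, background was subtracted and spatial detrending applied, which allows values under 0; arrays were not scaled to each other. The authors also deposited a table of log2 values, whose median lies at its floor of -3.32 in every column; its scale is log2, and its scaling between arrays and its centring stay unknown.

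Outlier-marked spots were left out, kept spots averaged per probe, and probes of a miRNA summed. Arrays were scaled to the 75th percentile of 11 miRNAs (those detected above background on every array), floored at 7.90 and put on the log2 scale. The 41 miRNAs that passed the background call on both arrays of a group were fitted with limma 3.58.1 in R 4.3.3 (lmFit, default eBayes, two-sided). P-values were adjusted by Benjamini-Hochberg over the 41, with a threshold of 0.05. The fit was also run on simulated data. No outcome of that run is given here, so it says nothing on error rates with floored values. No spot was saturated (0 in all). That there were only 4 arrays limits the precision.

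The members, the lists and the tests were chosen with earlier results of these data known. The miRNAs named are all miR-34 arms, the 5 tested miRNAs nearest to miR-34a-5p, and list members well above background on at least 1 array; others are named as undetected. Alternatives covered background correction, scaling, floor, filter, detection call, probe summary, variance prior, replicate numbers and each array left out. Sequences are from RefSeq (GRCr8) and probe sequences from the deposited files; plots used matplotlib 3.10.9.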

Additional observations from a re-analysis of the deposited data

Results flagged for a closer look

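Signals appeared in 2 M1_OA spots that had been marked as outliers and left out of the means. They carried the flag for well above background where most kept spots of their probe did not. Only spots brighter than every M0_sham spot of their probe were listed, so that trait is part of the choice and not a result. A spot of the 19 nt miR-449a-5p probe on M1_OA replicate 1 had a signal of 43.4, while the 7 kept spots of that probe on that array lay between -4.73 and -1.02 and the brightest of its 16 M0_sham spots was 0.102. A spot of the 19 nt miR-34a-5p probe on M1_OA replicate 1 had a signal of 19.6, while its 7 kept spots there lay between 2.68 and 17.0 and the brightest of its 16 M0_sham spots was 0.171. Other spots of the 20 nt miR-34a-5p probe that were left out on the M1_OA arrays had signals of 90.9, 121.7 and 71.8, next to kept spots of the same order.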

How the results depend on the processing

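The log2 difference of miR-34a-5p (2.93) kept its direction and its side of the threshold in 17 of 20 alternatives, with values from 0.89 to 5.55. It was -0.18 with normexp and an offset of 50, 2.93 (adjusted p = 0.0888) with no filter, and 1.24 (adjusted p = 0.177) with the floor of each array. The highest value, 5.55, came from the authors' deposited table, whose M0_sham values for miR-34a-5p are not read as measured levels. Over all 20 alternatives the limma adjusted p ran from 1.01e-09, with the replicate block, to 0.499. Normexp without scaling, added after seeing the data, gave 0.89 (adjusted p = 0.00356). Leaving out each array in turn gave 2.66 to 2.86, where the lone array of a group is assumed to vary like the others. The cause of these changes was not tested. The count called higher (22) was 34 with labelling spike-ins, 4 with normexp, 2 with no filter, 4 with the floor of each array and 13 to 21 with each array left out, the lowest without M0_sham replicate 2.

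The count called lower by limma (4) was 0 with no scaling, with the percentile over the 6 all-array miRNAs without the letters CTCC in a probe, with labelling spike-ins and with normexp without scaling, each with 0 at an unadjusted p under 0.05. It was 0 with no filter (10 unadjusted), 2 with total gene signal, 2 with the floor of each array, 25 with normexp, and 0 (3 unadjusted; without M1_OA replicate 1) to 9 (without M0_sham replicate 2) with each array left out. The lower bound of the miR-34a-5p fold (2.36) was 7.35 with no scaling, 2.08 with quantile normalization, 5.58 without CTCC, 11.2 with spike-ins, 2.12 from the 20 nt probe alone and 1.71 to 4.52 with each array left out. It was 0.980, which gives no fold, when every spot had to be well above background. The 19 nt probe alone left miR-34a-5p untested. Scaling to the 75th percentile over all miRNAs could not give a value, as that percentile was under 0 on every array.

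The replicate number was also fitted as a block, which the labels do not tie to shared animals or days. The miR-34a-5p difference was then 2.93 ± 0.34 (SE, limma adjusted p = 1.01e-09), with 19 miRNAs higher and 7 lower. As this SE exceeded the 0.13 of the main fit, the small p reflects variance pooled over the 41 miRNAs and not closer arrays. Same-numbered arrays deviated together with r = 0.308 across 41 miRNAs in either pair, which share that value by construction. The number of miR-34 arms that passed the background call on both M1_OA arrays (1) or on both M0_sham arrays (0) did not change when every kept spot, or at least 1, had to carry the flag. Signals under each array's lowest detected signal were treated as not resolved.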
